A study of Mus musculus with 12 samples.

Results

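RNA recovered with AGO2 from tibialis anterior (TA) muscle was described at 10 genes that glucocorticoids induce in muscle: Fkbp5, Tsc22d3, Ddit4, Sgk1, Zbtb16, Klf9, Klf15, Cebpd, Arrdc2 and Slc25a25. The genes were chosen by name with the deposited folds over input and between the genotypes in view, so all values below are a description and none was tested. Of 17902 annotated genes with a listed peak in any list, these are 10. All listed peaks that touch the gene on its own strand were taken, with no threshold: 253 WT and 220 mir-486 KO peaks in set 1, and 358 WT and 400 KO peaks in set 2.

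The assay was chimeric eCLIP, in which AGO2, the protein that carries microRNAs, is cross-linked to RNA and immunoprecipitated (IP). A peak that stands above its input marks RNA held by the microRNA machinery. A listed peak alone does not, since many lay at or below input. In KO of set 2, 12 of 21 exonic Fkbp5 peaks had a log2 fold over input below 0. Each of 2 library sets holds 1 WT and 1 KO total IP library from whole TA muscle of male mice at 6 months, each with a size-matched input, and the animals had no drug treatment in the labels. WT mice are labelled wildtype, C57BL/6, and KO mice miR-486-/-, FVB N/J. The KO is a germline CRISPR deletion of the mir-486 stem-loop in an intron of Ank1, so all cells lack it. The methods instead give both genotypes a C57BL/6J background, and this was not reconciled, so genotype and labelled strain cannot be told apart. The methods speak of more muscles than libraries, run in duplicate, and neither source says whether the sets are different mice or whether muscle was pooled. With 1 library per genotype in each set, no spread between animals can be given, and the 2 sets are shown side by side. Libraries further enriched for miR-486 are not analysed here.

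Glucocorticoids bind the glucocorticoid receptor, which leaves its Hsp90 chaperone complex, enters the nucleus and activates genes through paired response elements. In skeletal muscle the response favours protein breakdown, amino acid use and glucose sparing, and it rises with stress, fasting and time of day. Fkbp5 restrains the response itself, as a co-chaperone that lowers the receptor's affinity for hormone. Tsc22d3 (GILZ) carries part of the anti-inflammatory effect. Ddit4 (REDD1) inhibits mTORC1, the growth kinase complex, and Sgk1 is a kinase of ion transport and cell survival. Zbtb16, Klf9, Klf15 and Cebpd are transcription factors. Klf15 drives amino acid catabolism. Slc25a25 is a mitochondrial carrier of ATP-Mg and phosphate, and Arrdc2 is an arrestin-domain protein.

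The libraries carried the RNA of muscle. All 10 skeletal muscle markers, among them Ckm, Acta1 and Ttn, had exonic peaks in each of the 4 total IP libraries. Their gene medians of exonic log2 WT over KO had a median of 0.66 in set 1 and −0.04 in set 2. T cell markers had no exonic peak in any library. The B cell markers Cd79a, with 5 exonic peaks, Cd79b, with 2, and Ms4a1, with 5, had them in the WT library of set 2 and none in the other 3 libraries. The part of these cells in the values of set 2 below was not tested. In whole muscle, fewer cells of a type and less RNA per cell cannot be told apart. The absolute depth is unknown, as the files give folds and p-values only. Equal reads in the 2 IP libraries correspond to a log2 of 0.16 for WT over KO in set 1 and 0.12 in set 2, which reflects library scaling.

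A peak is called enriched here when its deposited log2 fold over input and its −log10 p were both at least 3. Most enriched peaks of the group were 3′ UTR peaks of Sgk1, Ddit4 and Slc25a25 and, in set 1 only, of Tsc22d3. In set 1, 17 of the 253 WT peaks were enriched, against 3.57% of all listed peaks, and 11 of the 220 KO peaks, against 0.848%. In set 2, 10 of the 358 WT peaks were enriched, against 1.42%, and 14 of the 400 KO peaks, against 1.23%. Of these enriched peaks, 14 of 17, 10 of 11, 10 of 10 and 14 of 14 lay in 3′ UTRs, and none lay in an intron. All enriched peaks of the lists numbered 3297, 1016, 3479 and 3148 in the same order. Those in 3′ UTRs, counted once per gene, numbered 1063, 360, 1067 and 1040. Adjoining peaks are often pieces of 1 larger peak, so these counts are not counts of binding events.

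Sgk1 (chr10:21882184-21999903, plus strand) had enriched 3′ UTR peaks in every library, 4 in WT and 9 in KO of set 1 and 5 in WT and 10 in KO of set 2. The median log2 over input of its 3′ UTR peaks was 4.64 in WT and 3.83 in KO of set 1, and 3.49 in WT and 3.91 in KO of set 2. Its coding peaks were lower in each library, with medians of 1.502, 1.12, 0.84 and 0.36 in the same order. The highest WT peak of set 1 (chr10:21999615-21999647) had a log2 fold of 6.55 with a −log10 p of 400, the highest value written in the files. The peaks that overlap it most had log2 folds of 5.20 in KO of set 1, 4.40 in WT of set 2 and 4.79 in KO of set 2. This stretch of the 3′ UTR was thus enriched in both genotypes and both sets.

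Ddit4 (chr10:59949669-59951834, minus strand) was high over input throughout, and all of its exonic peaks were above 0 in the 4 libraries. Its exonic medians were 2.67 in WT and 2.58 in KO of set 1, and 3.21 in WT and 3.03 in KO of set 2, a narrow range. Enriched peaks numbered 2 in WT of set 1, 4 in WT of set 2 and 3 in KO of set 2. In KO of set 1 none passed, and its highest peak had a log2 fold of 3.32 with a −log10 p of 2.51. Tsc22d3 (chrX:140539528-140600659, minus strand) had 4 enriched peaks in WT and 1 in KO of set 1 and none in set 2. Its 3′ UTR medians were 3.15 in WT and 1.89 in KO of set 1, and 1.31 in WT and 1.14 in KO of set 2. Slc25a25 (chr2:32414487-32451445, minus strand) had 3′ UTR medians of 2.95, 2.06, 2.37 and 1.71 in the same order. Its coding peaks had medians of 0.86, −0.62, 0.09 and −0.45, lower than the 3′ UTR in each library.

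**Figure D1:**
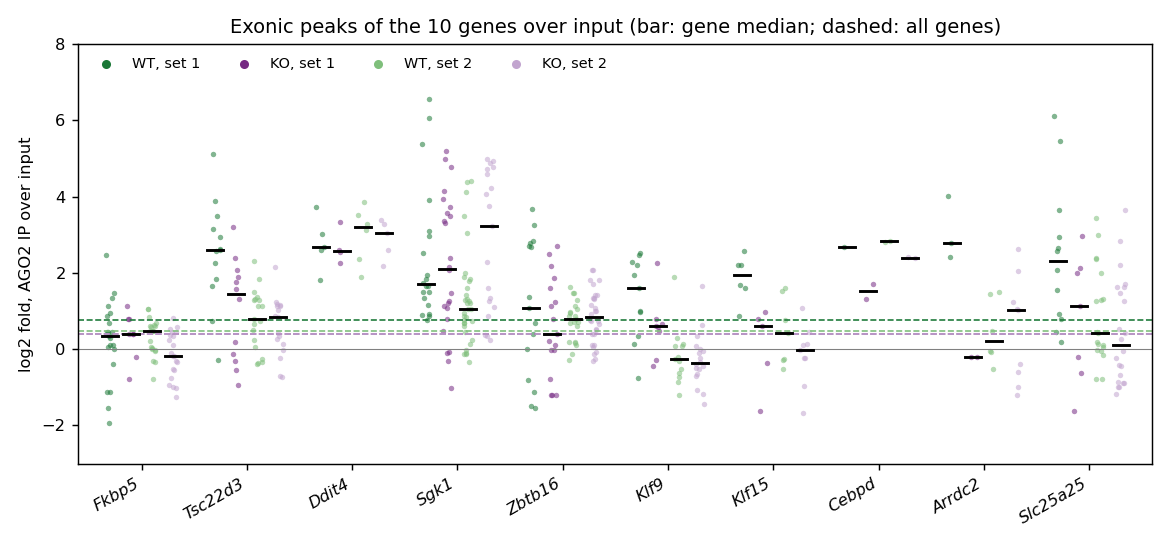
Each point is 1 exonic peak, with its log2 fold of AGO2 IP over input on the vertical axis, for the 10 genes and 4 total IP libraries. Black bars are gene medians and dashed lines the median of all gene medians in that library. The WT bars of set 1 are above the all-gene line of 0.75 for 9 of the genes, Fkbp5 at 0.33 being below it.

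The remaining genes had few enriched peaks. Zbtb16 had 2 enriched 3′ UTR peaks in WT of set 1 and none in the other libraries, and Arrdc2 had 1 enriched coding peak, also in WT of set 1. Zbtb16 3′ UTR peaks had medians of 2.68 in WT and 1.86 in KO of set 1, and 0.96 in WT and 1.37 in KO of set 2. Cebpd had only 1 or 2 exonic peaks in each library, with medians of 2.69, 1.51, 2.83 and 2.39. Cebpd, Klf9, Klf15 and Fkbp5 had no enriched peak. Fkbp5 was close to its input in exons, with medians of 0.33 and 0.38 in set 1 and 0.47 and −0.18 in set 2 (WT, then KO).

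Across the 10 genes, the median of the exonic gene medians over input was 2.13 (SD over genes 0.81) in WT of set 1, where all genes with an exonic peak had 0.75. It was 0.86 (SD 0.86) in KO of set 1, beside 0.38 for all genes. In set 2 it was 0.63 (SD 1.13) in WT and 0.84 (SD 1.34) in KO, beside 0.47 and 0.40. Skeletal muscle markers had 1.67 in WT and −0.52 in KO of set 1, and −0.06 in WT and −0.0 in KO of set 2.

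**Figure D2:**
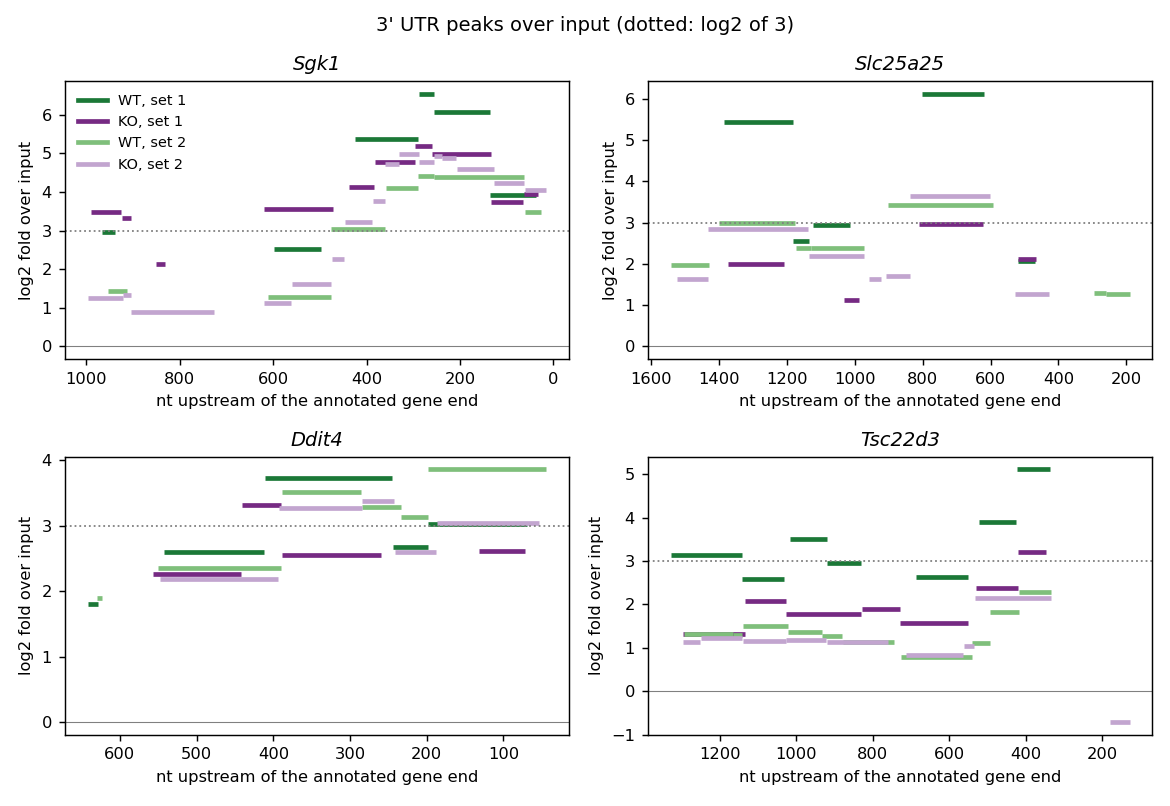
Horizontal lines are 3′ UTR peaks of Sgk1, Slc25a25, Ddit4 and Tsc22d3, placed by nt upstream of the annotated gene end, with log2 fold over input on the vertical axis and 1 colour for each library. Dotted lines mark a log2 of 3. The Sgk1 peaks nearest to the end are above that line in all 4 libraries, and those of Tsc22d3 are above it only in set 1.

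The 3′ UTRs were searched for 7-nt words complementary to positions 2 to 8 (the seed) of microRNAs of muscle. Of 14 microRNAs planned, 10 had a mature sequence in the RefSeq table (GRCm38.p6), and miR-486a, miR-1a, miR-133a and miR-378a did not. The 10 genes held 31 matches in their 3′ UTRs, of which 21 lay in a listed peak extended by 25 nt on both sides in at least 1 library and 12 in all 4 libraries. Matches in the 3′ UTRs of all genes were not counted in this way, so nothing is read from these numbers. The 6 matches that lay in enriched peaks of at least 2 libraries are shown with their microRNAs, since they place named sequences within enriched peaks. The highest Sgk1 peak does not hold the miR-16 match, which lies in the peaks beside it. Mature microRNAs are given 5′ to 3′ with the seed in capitals.
miR-16-5p: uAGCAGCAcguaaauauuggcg
miR-206-3p: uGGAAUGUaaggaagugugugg
miR-29a-3p: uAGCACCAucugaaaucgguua
miR-30a-5p: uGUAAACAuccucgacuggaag
miR-27a-3p: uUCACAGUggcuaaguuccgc
miR-22-3p: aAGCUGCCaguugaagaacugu

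The 3′ UTR windows are given on the strand of the gene, 5′ to 3′, GRCm38, with the seed match in capitals.
Sgk1 and miR-16, chr10:21999521-21999549: aaggaaagcatTGCTGCTacaaatatttc
Slc25a25 and miR-206, chr2:32415142-32415170: ggaccagcctcACATTCCacgtgtgtacc
Tsc22d3 and miR-29a, chrX:140539898-140539926: ccaccattcatTGGTGCTgactacataga
Ddit4 and miR-30a, chr10:59949753-59949781: catctagaaccTGTTTACatgaagttact
Ddit4 and miR-27a, chr10:59949840-59949868: tggaggattcaACTGTGAggagaggggct
Ddit4 and miR-22, chr10:59949983-59950011: gacctgttcgaGGCAGCTatcttacagac

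The miR-16 match in Sgk1 lay in enriched peaks of all 4 libraries, with best log2 folds over input of 5.37 in WT and 4.77 in KO of set 1, and 4.11 in WT and 4.73 in KO of set 2. The miR-206 match in Slc25a25 lay in the highest exonic peak of that gene in each library, at 6.12 and 2.97 in set 1 and 3.44 and 3.64 in set 2 (WT, then KO). miR-206 is a muscle microRNA. This match is not assigned to miR-206 over miR-1a, another muscle microRNA, whose sequence was not held for the search. All 3 matches printed for Ddit4 lay in enriched peaks of WT of set 1 and of both libraries of set 2. The miR-29a match in Tsc22d3 had 5.11 and 3.20 in set 1, both enriched, and 2.30 and 2.15 in set 2, not enriched (WT, then KO).

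The shares of peaks with a match are given beside those of all 3′ UTR peaks, and nothing is read from their differences, since neighbouring peaks can share a match. A match to any of the 10 microRNAs was held by 16 of 47 extended 3′ UTR peaks (34.0%) in WT of set 1, beside 27.5% of all 3′ UTR peaks. In KO of set 1 it was 14 of 43 (32.6%), beside 20.3%. In set 2 it was 18 of 60 in WT, beside 24.9%, and 21 of 71 in KO (29.6%), beside 25.1%. The searched windows of these genes were longer in set 1, with a median of 148 nt in WT and 135 nt in KO beside 125 and 119 nt for all 3′ UTR peaks. Among enriched 3′ UTR peaks, the share with a match was 8 of 14, 4 of 10, 6 of 10 and 6 of 14 (WT and KO of set 1, then of set 2). All enriched 3′ UTR peaks had 52.2%, 48.3%, 48.4% and 49.8%. A match is a description of the letters in the window and does not show which microRNA was bound.

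In the direct comparison of the IP libraries in set 1, the exonic median of WT over KO at WT peaks was above 0 for all 10 genes. Klf9 was the least clear, with 0.42 there and −0.06 in KO over WT at KO peaks. Its KO over WT median was above the −0.16 of equal reads in that list, and 4 of its 8 exonic KO peaks were above 0. At WT peaks, 106 of 107 exonic peaks had a log2 WT over KO above 0, beside 80.0% of all exonic WT peaks. The median of the 10 gene medians was 2.21 (SD over genes 1.69), beside 0.84 for all 11524 genes with an exonic WT peak. In 8 of the 10 the gene median was at least 1, a value reached by 42.3% of those genes. At KO peaks, compared as KO over WT, 80 of 89 exonic peaks were below 0 and 9 above, beside 51.9% of all exonic KO peaks above 0. The median of the gene medians was −2.08 (SD 1.28), beside 0.26 for all genes. In 7 of the 10 it was at most −1, beside 8.03% of genes. Both lists use the same pair of libraries, and the genes were chosen with them in view, so neither supports the other.

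In set 2 the same comparison gave values near 0. Of 148 exonic WT peaks, 55 were above 0, beside 58.1% of all exonic WT peaks. The median of the gene medians was −0.07 (SD 0.27), beside 0.18 for all genes. None of the 10 reached 1, a value reached by 13.0% of all genes. At KO peaks 111 of 152 exonic peaks were above 0 in KO over WT, beside 51.1% of all exonic KO peaks. The median of the gene medians there was 0.05 (SD 0.34), beside 0.08, and none was at most −1, beside 1.56% of genes. None of the 8 genes at 1 or more in set 1 was so in set 2.

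**Figure D3:**
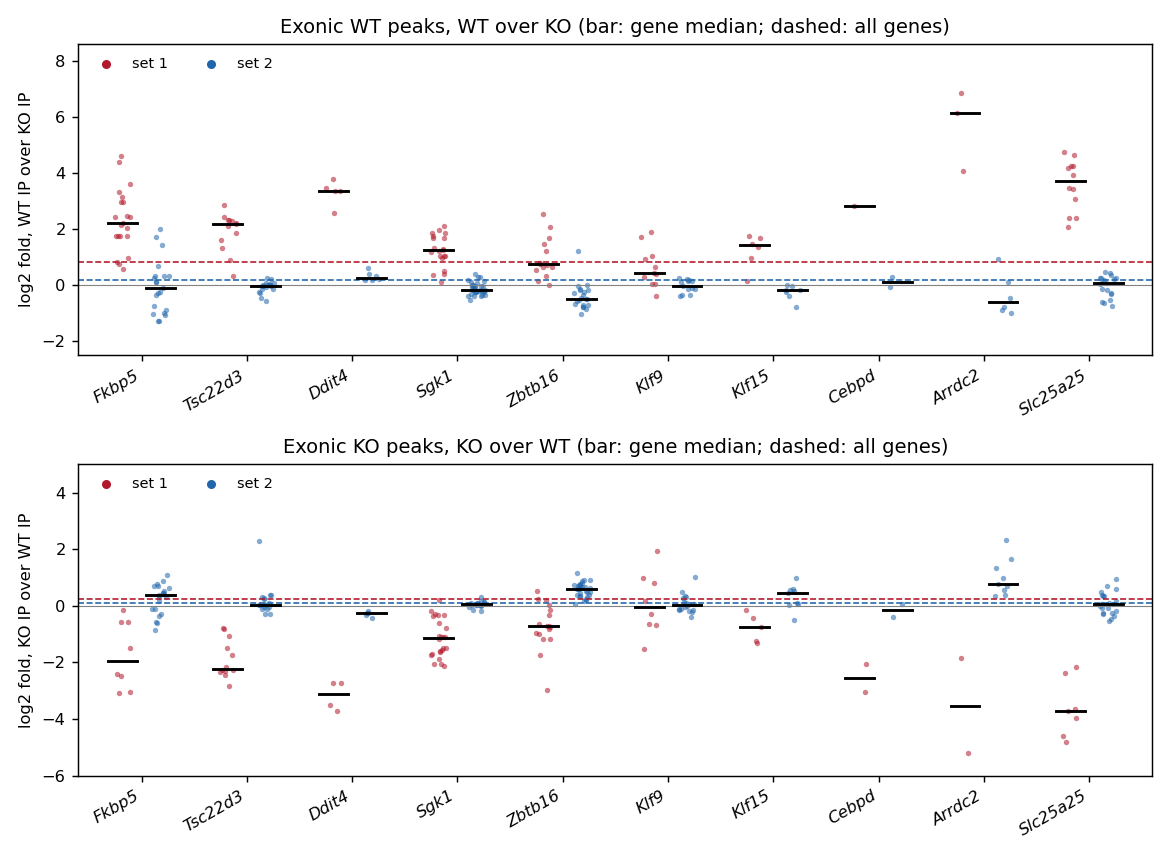
Each point is 1 exonic peak. The upper panel shows log2 WT over KO at WT peaks and the lower panel log2 KO over WT at KO peaks, for both sets, with gene medians as black bars and all-gene medians as dashed lines. The set 1 bars lie above 0 in the upper panel and below 0 in the lower panel for each gene, while the set 2 bars lie between −0.61 and 0.75.

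Arrdc2 (chr8:70835129-70839720, minus strand) had the highest gene median of the group in set 1. Its 3 exonic WT peaks, all coding, had log2 WT over KO from 4.07 to 6.86, with a median of 6.14, and only 1 gene of 11524 had a higher one. The coding peak with the highest −log10 p (chr8:70836888-70837026, −log10 p 74.3) had a log2 of 6.14 in set 1. Over input this stretch had log2 folds of 4.01 in WT and −0.20 in KO of set 1, and of 1.502 in WT and 2.62 in KO of set 2. WT was the higher library in set 1 and KO in set 2. In set 2 the WT peak that overlaps it most had a log2 WT over KO of −0.996, and all 9 exonic KO peaks of Arrdc2 were above 0 in KO over WT, with a median of 0.75. The exonic medians of the gene thus lay on opposite sides of 0 in the 2 sets.

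Slc25a25 had log2 WT over KO from 2.07 to 4.75 over 12 exonic WT peaks in set 1, with a median of 3.71. Its miR-206-matched peak (chr2:32415105-32415290) had 4.75 with a −log10 p of 400 in set 1, and 0.25 in set 2. At KO peaks the same stretch had a log2 KO over WT of −4.82 in set 1 and −0.26 in set 2. Ddit4 had 2.57 to 3.77 over 5 peaks in set 1, with a median of 3.37, and 0.17 to 0.62 over 6 peaks in set 2, with a median of 0.27. Its 3′ UTR peak with the highest −log10 p (chr10:59949914-59950080) had 3.47 in set 1 and 0.23 in set 2. Ddit4 was the 1 gene of the group with all exonic WT peaks above 0 in both sets. Cebpd (chr16:15887286-15891031, plus strand) had 1 exonic WT peak in set 1 (chr16:15888069-15888265), at 2.82 with a −log10 p of 29.04, and 2 in set 2, at −0.05 and 0.30.

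Fkbp5 (chr17:28399094-28517527, minus strand) had 21 exonic WT peaks in set 1, from 0.57 to 4.62 with a median of 2.23, and 21 in set 2, from −1.29 to 2.00 with a median of −0.10. Its coding peak with the highest −log10 p (chr17:28406114-28406253) had 4.62 with a −log10 p of 5.90 in set 1. The peak of set 2 that overlaps it most had −0.98. Some set 2 peaks of Fkbp5 also overlapped another annotated gene on its strand. Without peaks of that kind, the exonic WT over KO median of the 10 genes in set 2 stayed at −0.07, and the intronic median went from 0.27 to 0.20. Over input, the set 1 peak had a log2 fold of only 0.33. Tsc22d3 had a median of 2.18 in set 1 and −0.03 in set 2. All 13 of its exonic WT peaks were above 0 in set 1, as were 7 of 19 in set 2. The 3′ UTR peak that holds its miR-29a match (chrX:140539865-140539951) had 2.86 with a −log10 p of 400 in set 1, and the peak overlapping it most in set 2 had −0.03.

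Klf15 (chr6:90462576-90475238, plus strand) had medians of 1.42 in set 1 and −0.18 in set 2. The 3′ UTR peak of Klf15 with the highest −log10 p (chr6:90474812-90475040) had 1.36 in set 1 and −0.38 in set 2. Sgk1 had 1.25 and −0.16. Its most enriched 3′ UTR stretch stood at 2.13 in set 1, the highest exonic value of that gene, and at 0.19 in set 2. Zbtb16 (chr9:48654297-48836222, minus strand) had 0.77 and −0.48, and Klf9 (chr19:23141226-23168134, plus strand) had 0.42 and −0.04. The set 1 medians of Zbtb16 and Klf9 were below the 0.84 of all genes, while those of Klf15 and Cebpd were above it. The coding peak of Klf9 with the highest −log10 p (chr19:23141767-23141897) had 1.73 in set 1 and −0.04 in set 2. In Zbtb16 the highest exonic value of set 1 was at a coding peak (chr9:48832400-48832595), which had 2.54 with a −log10 p of 17.5. The peak that overlaps it most in set 2 had −0.85. In set 2, all 30 exonic KO peaks of Zbtb16 were above 0 in KO over WT, with a median of 0.60.

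In set 1, 25 of the 253 WT peaks passed a log2 WT over KO of 3 and a −log10 p of 3, beside 0.469% of all WT peaks. They lay in Slc25a25 (9), Fkbp5 (5), Ddit4 (4), Arrdc2 (3), Zbtb16 (3) and Sgk1 (1), with 18 in exons and 7 in introns. The lowest log2 of those that passed was 3.07, in coding sequence of Slc25a25, and the highest that missed on log2 alone was 2.90, in an intron of Zbtb16. No peak of the group passed in the WT over KO list of set 2 (0.0192% of all its peaks passed). None passed in the KO over WT lists of set 1 (0.179%) and set 2 (0.0144%).

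Introns hold reads of unspliced RNA, and only Fkbp5 and Zbtb16 had over 5 intronic WT peaks in set 1. Fkbp5 had 26, all above 0, with a median log2 WT over KO of 2.16, close to the 2.23 of its exons. Zbtb16 had 112, with a median of 1.16, of which 102 were above 0, and its exons had 0.77. All genes with intronic WT peaks had a median of 1.18. In set 2, Fkbp5 had 55 intronic peaks with a median of 0.27 and Zbtb16 133 with a median of −0.36, beside 0.71 for all genes. At KO peaks of set 2, 168 of 174 intronic Zbtb16 peaks were above 0 in KO over WT, with a median of 0.58. Of all intronic KO peaks of that list 77.1% were above 0, and the median over all genes was 0.69. The intronic peaks that passed both thresholds of 3 in set 1 were 3 in Fkbp5, at 4.07, 3.74 and 3.16, 3 in Zbtb16, at 3.86, 4.25 and 4.80, and 1 in Sgk1, at 3.16.

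Most intronic values of set 1 rest on few reads. In the WT over KO list, 20 of 26 Fkbp5 peaks and 80 of 112 Zbtb16 peaks fell, within 0.001, on the log2 of a ratio of whole numbers up to 6. Of the exonic peaks of the 10 genes, 14 of 107 did so, beside 53.7% of all exonic WT peaks. Fkbp5 held 8 of these 14, among its 21 exonic peaks, so its exonic values also rest in part on few reads. Of all intronic WT peaks of set 1, 79.6% did so. In set 2, 37 of 55 intronic Fkbp5 peaks and 8 of 133 intronic Zbtb16 peaks did so, beside 71.6% of all intronic WT peaks. Ratios above 6 lie outside this count, so a peak past a log2 of 3 is never in it, however few reads KO had. The count thus does not show that the high exonic folds rest on many KO reads. Intronic peaks were also chosen in the library on top of each ratio: in set 1 the KO over WT medians at KO peaks were 1.43 for Fkbp5 and 0.67 for Zbtb16, so that each list favoured the library its peaks came from. In exons of set 1, no gene median was above 0 in KO over WT, though the −0.06 of Klf9 was above the −0.16 of equal reads.

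**Figure D4:**
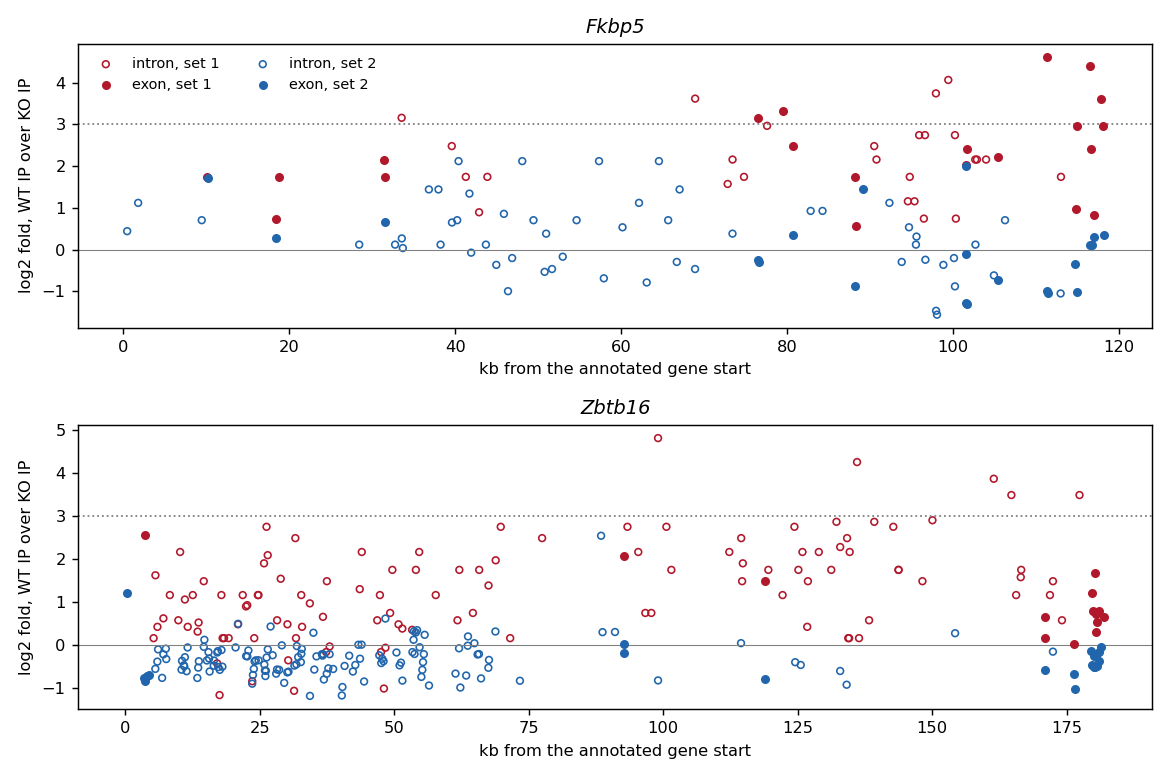
Peaks of Fkbp5 and Zbtb16 by kb from the annotated gene start, with log2 WT over KO at WT peaks on the vertical axis. Open circles are introns and filled circles exons, red for set 1 and blue for set 2, and dotted lines mark a log2 of 3. Set 1 points of Fkbp5 all lie above 0 along the gene, and most set 2 points of Zbtb16 lie below 0.

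The deposited folds also imply the ratio of the 2 inputs, as log2 WT over KO, less WT over its input, plus KO over its input, at matched exonic peaks. In set 1 the implied log2 WT over KO of the inputs had a median of 0.84 over 9 genes, from −0.87 in Klf9 to 2.27 in Ddit4, beside −0.33 for all genes (quartiles −0.98 and 0.08). It was 1.48 in Slc25a25, 1.45 in Cebpd, 1.08 in Fkbp5, 0.84 in Sgk1, 0.60 in Tsc22d3, 0.24 in Zbtb16 and −0.59 in Klf15. Fkbp5 and Cebpd rest on 1 pair of peaks each, Ddit4 and Klf15 on 2 pairs each, and Arrdc2 had no matched pair. Taken as a difference of gene medians without matching peaks, the set 1 median was 1.65 over 10 genes, and with peaks matched by any overlap 1.07. In set 2 the median was −0.13 over 10 genes, beside −0.11 for all genes. For Ddit4, a log2 of 3.37 between the IP libraries of set 1, over 5 WT peaks, thus stood beside an implied 2.27 between the inputs, over 2 pairs. Inputs measure the RNA before immunoprecipitation, and how far RNA level and AGO2 occupancy each enter the IP values was not tested.

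The receptor side of the pathway lay near the level of all genes. The 12 genes of the receptor, its chaperones and cofactors had a median of 0.89 in WT over KO of set 1, beside 0.84 for all genes, and 0.02 in set 2. Nr3c1, the receptor itself, had exonic medians of 0.92 in set 1 and −0.10 in set 2. Of the 12 genes, 1 had a peak past the WT over KO thresholds in set 1, Nrip1, a corepressor, beside 2.37% of all genes with a listed peak. The 12 reference genes, among them Gapdh and Actb, had 0.76 and 0.14.

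Of 36 other genes that glucocorticoids or fasting induce, all had exonic WT peaks in set 1, with a median of 1.22 and a range from −0.56 to 5.74. In 7 of them at least 1 peak passed the WT over KO thresholds in set 1, as in 2.37% of all genes with a listed peak in that list: Per1 of the circadian clock, the transcription factor Foxo1, the metallothioneins Mt1 and Mt2, Glul (glutamine synthetase), Errfi1, a feedback inhibitor of the EGF receptor, and Ucp3, a mitochondrial carrier. Their exonic medians in set 1 were 1.65 for Per1, 2.74 for Foxo1, 5.21 for Mt1, 5.74 for Mt2, 2.47 for Glul, 1.65 for Errfi1 and 2.01 for Ucp3. None of the 36 passed in set 2 (0.252% of genes), where the medians of Mt1 (0.92) and Mt2 (1.71) were above 0 and that of Glul was −0.72. In the KO over WT direction 2 passed in set 1, the ubiquitin ligase Fbxo32 and the transcriptional coregulator Cited2, beside 0.921% of genes, and 1 in set 2, Hif3a, beside 0.196%. The exonic median of WT over KO in set 1 was 0.24 for Fbxo32 and −0.56 for Cited2, so the list did not all lie on 1 side.

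**Figure D5:**
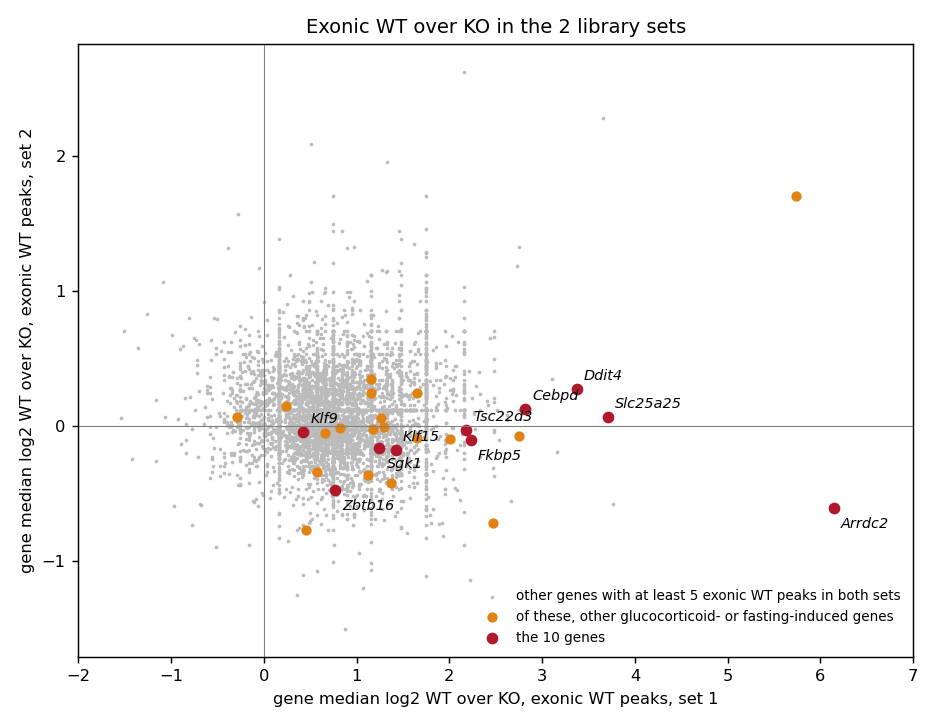
Gene medians of exonic log2 WT over KO at WT peaks, set 1 on the horizontal and set 2 on the vertical axis. Grey points are genes with at least 5 exonic WT peaks in both sets, orange points the other induced genes among them, and red points the 10 genes. The 10 genes extend to 6.14 on the set 1 axis and stay between −0.61 and 0.27 on the set 2 axis.

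Among 5267 genes compared, each with at least 5 exonic WT peaks in both sets, the 5 nearest to the group's median point (2.21 in set 1 and −0.07 in set 2) were Ssbp4, Suco, Plekhm2, Mpi and Araf. They lay between 2.13 and 2.16 in set 1 and between −0.12 and −0.04 in set 2. The distances were 0.05 to 0.07 on the log2 scale. Ssbp4, Suco, Plekhm2 and Mpi share the value of 2.16, the step of 4 reads against 1 in that list.

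RefSeq promoters, from 250 nt before to 50 nt after a start site, were held for 8 of the 10 genes, without Zbtb16 and Cebpd. The receptor's palindromic element, AGAACA and TGTTCT with 3 nt between them, was present in Sgk1 alone of these 8. It was present in 3 of 27025 genes in all (0.0111%). In Sgk1 it began at position −189 from 1 of its start sites, and the window (GRCm38, plus strand) is shown with both 6-nt words in capitals.
Sgk1 promoter, chr10:21993694-21993722: tgcggaaAGAACAgaaTGTTCTcggagat

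At least 1 of these 6-nt words was present in 2 of the 8 genes, Sgk1 and Tsc22d3, beside 21.3% of all genes. Genes with several start sites, such as Sgk1, were searched over more letters. The other genes may hold elements outside these windows or in other spellings, which this search does not read.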

How the data were processed

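The 8 lists of peaks in BED format analysed were 4 of total IP over input and 4 that compare the IP libraries directly (WT over KO at WT peaks and KO over WT at KO peaks, in each of 2 sets). The authors trimmed reads with cutadapt, aligned them with STAR, removed duplicates with UMI-tools, called peaks in each IP library with CLIPper and collapsed overlapping peaks. The deposited columns are the log2 fold of reads between 2 libraries, and the −log10 of its p-value, with 400 as the highest value and 0 where the fold is negative. Both are the authors' own values and were used as deposited.

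Peaks were given to a GENCODE M21 gene (GRCm38) where they shared 1 nt or more with it, strand included, and to coding sequence, UTR, other exon or intron at their midpoint. The labels name the later M24. Gene values are medians over peaks and group values medians over genes. The thresholds of 3 on log2 and −log10 p, the genes and the lists were chosen with earlier results of these data known. All 10 genes are named, each with its exonic peak of highest −log10 p in the WT over KO list of set 1, the peak of set 2 overlapping it most, and its highest enriched peak. Of the pathway lists, Nr3c1 and genes with a peak past the direct thresholds are named. No test across genotypes was made, since each set holds 1 library per genotype. Inputs were matched by 50% reciprocal overlap. Assignment was tested on 800 planted peaks. Markers of endothelium, adipocytes, macrophages, fibroblasts and red blood cells had medians of 0.28, 1.45, 0.97, 0.47 and 1.32 in WT over KO of set 1 and −0.08, 0.27, 0.99, 0.56 and 1.43 in set 2. Python 3.11.15, NumPy 2.4.6, pandas 2.3.3 and Matplotlib 3.10.9 were used. One further marker of the fixed lists is not reported here.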

Additional observations from a re-analysis of the deposited data

How the results depend on the processing

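Over 24 results, 136 alternative values were computed, of which 114 moved by less than the SD over genes or, for counts, stayed within 1.5 times. Counts of enriched peaks followed the log2 threshold. At a log2 of 1 they were 46 in WT and 22 in KO of set 1, and 48 in WT and 58 in KO of set 2, and at a log2 of 4 they were 7, 4, 3 and 8 in the same order. With adjoining peaks merged they were 12 in WT and 4 in KO of set 1, 3 in WT of set 2 and 3 in KO of set 2. In WT over KO of set 1, 61 peaks passed at a log2 of 1 and 13 at a log2 of 4. In KO over WT of set 2, 8 passed at a log2 of 1. Shares of all listed peaks at these other settings are not given, so nothing about these genes is read from the counts.

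Centring on all peaks of the same region class moved the exonic median over input in WT of set 1 to 1.25, and the intronic WT over KO median of set 1 to 0.00. For introns of set 2 the sign turned, with −0.24 over pooled peaks and −0.44 after centring. The exonic WT over KO median of set 1 kept its direction under the alternatives run, with 1.46 after centring and 1.74 over pooled peaks. Matches of 6 nt raised the number of 3′ UTR peaks with a match to 26, 22, 34 and 39 (WT and KO of set 1, then of set 2).

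No paired analysis was possible because the results come from no test: the deposited folds already set WT against KO within each set, and each library has its own peaks. Leaving out a library would leave no comparison in its set. The unknown depth and the few reads behind intronic values limit both sets.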

Other observations

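Reads on the opposite strand were rare at these genes. Of the 10, only Cebpd had listed peaks on the other strand, 1 in WT of set 2 with a log2 fold over input of 1.47 and 1 in KO of set 2 with −0.18.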
